A study of Mus musculus with 22 samples.

Results

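RNA from mouse embryos collected as blastocysts after knockdown (KD) of the histone variant H2A.Z was compared with RNA from control embryos collected 1 stage earlier, as morulae. The question behind this pairing was which differences remain once KD blastocysts are set against the earlier control stage, since a plain delay would leave them close to it. The members are fixed by the sample labels: the 4 KD blastocyst libraries and the 4 control morula libraries, 8 of the 22 RNA-seq libraries of the series. Genes with at least 1 FPKM (a read count scaled to transcript length and library size) in at least 3 of these 8 libraries were tested, which left 11667 of the 55335 genes in the deposited table.

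Each library was made with Smart-seq2 from 15 pooled embryos, labelled with the strain of their parents, B6D2F1. Smart-seq2 primes on poly(A) tails and does not keep the strand. KD embryos had received about 10 pl of a 20 µM mixture of siRNAs against H2A.Z as zygotes at pronuclear stage 3. Injected embryos were scored at 78 h after hCG injection, the morula time, and at 94 h, the blastocyst time. How the control embryos for RNA-seq were treated, and whether the KD embryos collected as blastocysts had formed a cavity, is not stated. Control blastocysts (4 libraries, the same stage label as the KD blastocysts) and KD morulae (3 libraries, the same stage label as the control morulae) are used below to place the values. Library values are always listed by replicate number: control morulae 1, 2, 7 and 8, KD blastocysts 1, 4, 5 and 6, control blastocysts 1, 4, 5 and 6, and KD morulae 1, 2 and 6.

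H2A.Z replaces the canonical histone H2A in nucleosomes around transcription start sites and at regulatory elements, where the SRCAP and TIP60-p400 complexes insert it and the chaperone ANP32E can remove it. At the step from morula to blastocyst, the outer cells become the trophectoderm, an epithelium that pumps fluid inward to form the cavity, and the inner cells become the inner cell mass, which later splits into epiblast and primitive endoderm. Stage-specific transcripts left from the oocyte and from the first wave of embryonic transcription are lost over the same days.

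The 8 libraries were alike in overall measures. Between 10406 and 11495 genes reached 1 FPKM, with the highest counts in KD blastocyst 5 (11495) and control morula 1 (11174). The library factors used for scaling ran from 0.923 in control morula 8 to 1.15 in KD blastocyst 5. Mitochondrially encoded transcripts made up 13.3% to 14.6% of the summed FPKM in the control morulae and 12.98% to 15.3% in the KD blastocysts. Control blastocyst 1 stood apart from the other control blastocysts, with 20.04% of its FPKM in mitochondrially encoded transcripts against 15.2% to 17.1%. Correlations between replicates over the tested genes ran from 0.972 to 0.988 in the control morulae and from 0.965 to 0.981 in the KD blastocysts.

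KD blastocysts differed from control morulae in 1351 genes at an adjusted p under 0.05 and a log2 fold change beyond 1 in either direction, tested with limma on log2(FPKM + 1) after scaling. Of the 11667 genes tested, 771 (6.61%) were higher and 580 (4.97%) were lower in KD blastocysts. At an adjusted p under 0.05 without a limit on the fold change, 1841 were higher and 2179 lower. The median log2 fold change over all genes tested was -0.03, with a median standard error (SE) of 0.19. The 4 libraries of one group all lay on one side of the 4 of the other for 3938 genes (33.8%), among them 1285 of the 1351 called genes. Because 1 FPKM was added before taking logs, the fold changes of genes with low levels are understated. A gene that entered the test through 1 group only was selected for a difference in how many libraries reached 1 FPKM. In all, 1043 genes reached 1 FPKM often enough only in KD blastocysts, of which 315 were called higher, and 733 only in control morulae, of which 138 were called lower. Of the 9518 genes that reached the filter in both groups, 456 (4.79%) were higher and 442 (4.64%) lower. The counts depend on the handling of low values: adding 0.1 FPKM before taking logs gave 1194 higher and 1016 lower, and a filter of 5 FPKM gave 464 and 414. At the edge of the filter, Rexo1 entered with the third-highest of its 8 values at 1.00001 FPKM and Gm29394 at 1.00024 FPKM, while Rassf4 at 0.999819 FPKM and Tmco6 at 0.999549 FPKM stayed outside. The p-values measure the spread among libraries of pooled embryos, not among embryos. In pooled whole embryos, fewer cells of a type and less RNA per cell cannot be told apart.

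**Figure D1:**
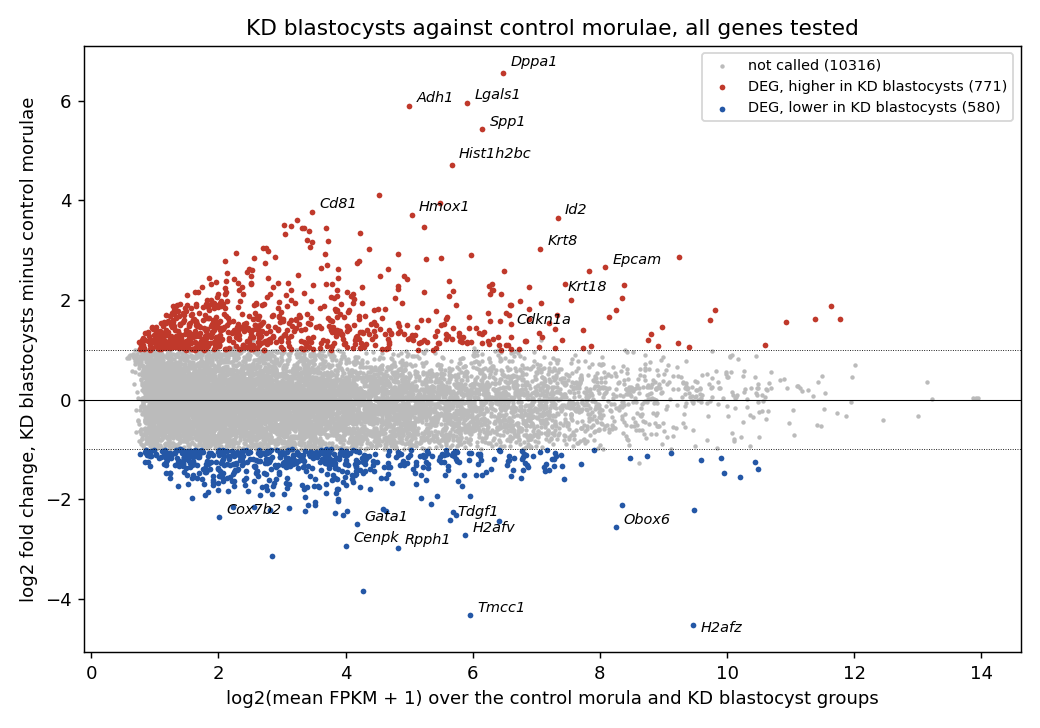
Log2 fold change (KD blastocysts minus control morulae, vertical axis) against log2 of the mean FPKM plus 1 over both groups (horizontal axis) for the 11667 genes tested. Red points are the 771 genes called higher in KD blastocysts and blue points the 580 called lower. Among the genes named in the text, H2afz has the lowest fold change and Dppa1 the highest.

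The target of the siRNAs was low in the KD blastocysts and KD morulae. H2afz (GRCm38/mm10 chr3:137864487-137866922), the main H2A.Z gene, had 1158, 1336, 1511 and 1421 FPKM in the control morulae and 64.2, 67.2, 53.2 and 57.6 FPKM in the KD blastocysts. It stood at 2656, 2430.5, 1945 and 2055 FPKM in the control blastocysts and at 30.3, 25.7 and 29 FPKM in the KD morulae. The KD blastocyst values were thus far below both control stages and somewhat above those of the KD morulae, with no overlap among the 4 groups. Against control morulae the log2 fold change was -4.52 (SE 0.18, adjusted p 5.23e-08). H2afv (chr11:6427229-6444443), the second H2A.Z gene, encodes a nearly identical protein. Its values were 97.3, 113, 100.01 and 92.5 FPKM in the control morulae, 19.9, 16.9, 10.6 and 13.9 FPKM in the KD blastocysts and 49.9, 62, 54.5 and 63.5 FPKM in the control blastocysts. All 4 KD blastocysts again lay below all 8 control libraries (log2 fold change -2.72, SE 0.22, adjusted p 6.49e-06 against control morulae).

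Among 15 tested genes of H2A.Z and its deposition, 3 were lower (20%, against 4.97% of all genes tested) and 0 higher (against 6.61%). Their median log2 fold change was -0.21. The third was Kat5 (chr19:5603014-5610237), the acetyltransferase of the TIP60-p400 complex, with 6.81, 4.21, 6.53 and 7.04 FPKM in the control morulae and 2.51, 1.81, 3.6 and 2.73 FPKM in the KD blastocysts. Its groups did not overlap, but its log2 fold change of -1.01 (SE 0.19, adjusted p 0.00201) was close to the limit and came to -0.97, -0.92 and -0.91 without control morula 7, control morula 8 or KD blastocyst 4. On the FPKM as deposited, and with all 22 libraries in the fit, 2 of the 15 genes were called lower. Srcap, the ATPase of the depositing complex, had 1.67, 2.2, 0.778 and 1.79 FPKM in the control morulae and 1.03, 1.57, 2.04 and 1.12 FPKM in the KD blastocysts (log2 fold change -0.12, adjusted p 0.679), and 59.6% of its 75-base stretches also occur in other genes, the most in the overlapping gene model Gm42715. Anp32e, the H2A.Z chaperone, had 9.87, 7.42, 6.85 and 6.02 FPKM and 7.41, 8.61, 15.8 and 11.7 FPKM (log2 fold change 0.39, adjusted p 0.14). For both genes the 2 groups overlapped.

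Tmcc1 (chr6:116018611-116193486) had the second-lowest fold change of the named genes, and it shares sequence with H2afz. It stood at 91.2, 115, 137 and 125 FPKM in the control morulae, 4.58, 4.72, 4.13 and 6.89 FPKM in the KD blastocysts, 67.2, 261, 158 and 173 FPKM in the control blastocysts and 3.5, 2.12 and 3.99 FPKM in the KD morulae (log2 fold change -4.33, SE 0.21, adjusted p 1.68e-07 for KD blastocysts against control morulae). Opposite an exon of Tmcc1 lies Gm8203 (chr6:116173737-116174123), a processed pseudogene of H2afz, and all 313 of the 75-base stretches of Gm8203 also occur in H2afz. Of the 2129 stretches of H2afz, 595 (27.9%) lie on the other strand of Tmcc1. The part of H2afz reads in the values of Tmcc1 was not tested. Gm8203 was listed at 0.162, 0.0743, 0.103 and 0.0367 FPKM in the control morulae and 0.106, 0.0694, 0 and 0.483 FPKM in the KD blastocysts. Gm6722 (chr12:83620680-83621069), another processed pseudogene of H2afz, had 29.3, 36.4, 43 and 30.8 FPKM and 1.08, 3.25, 1.65 and 0.736 FPKM in these groups, and Gm13007 (chr4:135997523-135997887) had 12, 11.1, 12.8 and 11.3 FPKM and 0.611, 0.318, 0.534 and 0.486 FPKM. Both were lower in all 4 KD blastocysts than in all 4 control morulae (log2 fold changes -3.85 and -3.13), and they share 5.06% and 14.4% of their stretches with H2afz.

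Several of the genes with the highest fold changes were near 0 in control morulae, high in control blastocysts and in between in KD blastocysts. Of the genes below, Dppa1, Lgals1, Adh1, BC053393 and Cd81 entered the test through the KD blastocysts alone. For them, some difference from the morulae follows from the filter. Dppa1 (chr11:46607772-46629261) had the highest fold change of the named genes: 0.332, 1.01, 1.13 and 0.628 FPKM in the control morulae, 188, 250.5, 119.9 and 145 FPKM in the KD blastocysts and 1457, 1135, 782 and 793 FPKM in the control blastocysts. The KD blastocysts lay between the control stages without overlapping either (log2 fold change 6.54, SE 0.27, adjusted p 5.23e-08 against control morulae). Lgals1 (chr15:78926725-78930465), a galactose-binding lectin, followed the same order, with 0.118, 0.691, 1.27 and 0.787, then 47.9, 171, 117 and 136, then 1464, 908, 563 and 761 FPKM (log2 fold change 5.95, adjusted p 6.90e-07). Adh1 (chr3:138260991-138290698), an alcohol dehydrogenase, was listed at 0 in 3 control morulae and at 0.0113 FPKM in control morula 2, at 50.4, 75.9, 75 and 47.4 FPKM in the KD blastocysts and at 347, 294, 332 and 180.03 FPKM in the control blastocysts (log2 fold change 5.89, adjusted p 9.23e-09). BC053393 (chr11:46571536-46589232), a neighbour of Dppa1 on chromosome 11, and Glrx (chr13:75839868-75850154), the thiol reductase glutaredoxin, had log2 fold changes of 4.11 and 3.95, with KD blastocyst means of 42.6 and 83.3 FPKM between morula means of 1.49 and 4.27 FPKM and control blastocyst means of 639 and 273 FPKM. Cd81 (chr7:143052739-143067934), a tetraspanin of the cell surface, stood at 0.766, 0.0831, 0.582 and 0.212 FPKM in the control morulae and 30.5, 22.9, 12.5 and 13 FPKM in the KD blastocysts (log2 fold change 3.77, adjusted p 6.89e-06). With 4.34, 13, 12.5 and 11.4 FPKM in the control blastocysts, its values overlapped between KD and control blastocysts.

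The trophectoderm list had 8 of 23 tested members higher (34.8%) and 0 lower, with a median log2 fold change of 0.49 against -0.03 over all genes. Of all genes tested, 6.61% were higher and 4.97% lower. Of the 8, Krt7 entered the test through the KD blastocysts alone. Among the 20 members that reached the filter in both groups, 7 were higher (4.79% of all such genes were). At an unadjusted p under 0.05, 13 members were higher and 6 lower, and the share over all genes at this p is not given. At an adjusted p under 0.05 whatever the fold change, 1841 of all 11667 genes were higher and 2179 lower. Sfn, the most abundant member, had a mean of 452 FPKM in the control morulae and 249.9 FPKM in the KD blastocysts, and its log2 fold change of -0.91 (adjusted p 0.00405) was within the limit of 1. Krt8 (chr15:101996698-102004482) and Krt18 (chr15:102028180-102032027) encode the keratin pair of the first embryonic epithelium. Krt8 had 32.4, 19.3, 28.8 and 27.7 FPKM in the control morulae and 169.8, 241, 313 and 231 FPKM in the KD blastocysts, and Krt18 had 47.8, 54.7, 67.4 and 80.9 FPKM and 369, 461, 399 and 329 FPKM. Both were clearly separated from the morulae, with log2 fold changes of 3.03 (SE 0.19, adjusted p 1.07e-06) and 2.58 (SE 0.22, adjusted p 9.48e-06), although 21.97% of the stretches of Krt8 also occur in other genes, the most in a pseudogene of Krt8. In the control blastocysts Krt8 had 225, 431, 425 and 289 FPKM and Krt18 730.2, 992, 827 and 646 FPKM. Id2 (chr12:25093799-25097140), an inhibitor of helix-loop-helix factors and an early mark of outer cells, had 17, 29.7, 20.3 and 21.5 FPKM, 279.5, 366, 239 and 311 FPKM and 847, 853, 677 and 642 FPKM in control morulae, KD blastocysts and control blastocysts, with no overlap (log2 fold change 3.65 against control morulae, adjusted p 1.07e-06). Eomes (chr9:118478212-118486132), a T-box factor of trophoblast, had 1.68, 1.83, 1.23 and 1.09 FPKM in the control morulae and 3.2, 4.08, 9.79 and 6.6 FPKM in the KD blastocysts (log2 fold change 1.36, adjusted p 0.00117), and KD blastocyst 5 was its highest value of the 8. Klf6 (chr13:5861482-5870394), a zinc finger factor, was called with a log2 fold change of 2.62 (adjusted p 8.42e-06). The other called members were Krt7, Tspan8 and Slc2a3. Cdx2, the factor that sets trophectoderm fate, did not pass: 1.19, 0.777, 0.926 and 0.884 FPKM in the control morulae and 1.11, 1.16, 3.07 and 2.23 FPKM in the KD blastocysts, with overlap (log2 fold change 0.48, adjusted p 0.0724). Gata3, its partner in the same cells, had 22.7, 16.5, 16.6 and 20.8 FPKM and 28, 23.6, 40.3 and 23.6 FPKM, a small difference without overlap (log2 fold change 0.49, adjusted p 0.0505). The means of Cdx2 and Gata3 were 1.89 and 28.9 FPKM in the KD blastocysts and 1.79 and 34.95 FPKM in the control blastocysts.

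Genes of the cavity and its epithelium were called higher in 9 of 26 cases and lower in 0, with a median log2 fold change of 0.45. Of the 9, Cldn3, Dsp, Dsc2 and Dsg2 entered the test through the KD blastocysts alone, and among the 18 members that reached the filter in both groups 5 were higher (4.79% of all such genes were). Epcam (chr17:87635979-87651129), an adhesion protein of epithelia, stood at 76.9, 64.4, 64.2 and 76.5 FPKM in the control morulae, 414, 426, 586 and 453 FPKM in the KD blastocysts and 497, 637, 724 and 581 FPKM in the control blastocysts (log2 fold change 2.65, SE 0.14, adjusted p 4.06e-07 against control morulae). KD blastocysts were far above the morulae and overlapped the control blastocysts. Gjb5 (chr4:127354809-127358181), a gap junction connexin, had 1.12, 1.38, 1.97 and 1.64 FPKM, 20.3, 27.3, 21.3 and 22.9 FPKM and 62.2, 65.6, 78.2 and 55.8 FPKM in the same 3 groups, with no overlap (log2 fold change 3.19, adjusted p 6.98e-07). Dsp (chr13:38151294-38198577), the plaque protein of desmosomes, and Atp1b1 (chr1:164437109-164458355), a subunit of the sodium pump that drives fluid into the cavity, had log2 fold changes of 1.93 (adjusted p 1.45e-05) and 1.47 (adjusted p 8.21e-05). Atp1b1 had 9.45, 6.9, 6.19 and 6.76 FPKM in the control morulae and 17.4, 19.4, 27.3 and 28.5 FPKM in the KD blastocysts, and it overlaps Nme7 on the other strand. Desmosomal Dsc2 and Dsg2, the claudins Cldn3 and Cldn6 and the membrane linker Ezr completed the called members. The water channel Aqp3 had 44.2, 28.5, 27.5 and 31.3 FPKM in the control morulae and 55, 32.1, 75.3 and 42.3 FPKM in the KD blastocysts, and the claudin Cldn4 had 27.8, 24.1, 25 and 19.9 FPKM and 44, 15.7, 49.5 and 23.7 FPKM, and neither passed the test (adjusted p 0.085 and 0.519). The means of Aqp3 and Cldn4 were 51.1 and 33.2 FPKM in the KD blastocysts and 26.1 and 27.4 FPKM in the control blastocysts. Aqp8, another water channel, was listed at 0 in the 4 control morulae, at 0.304, 0.424, 1.19 and 0.386 FPKM in the KD blastocysts and at 6.59, 4.44, 9.67 and 10.2 FPKM in the control blastocysts, and was too low in the 8 libraries to enter the test.

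Members of the inner cell mass and pluripotency list were called in both directions, with 3 of 21 higher, 3 lower and a median log2 fold change of -0.31. Each count is 14.3% of the list, against 6.61% higher and 4.97% lower of all genes tested. Among the 20 members that reached the filter in both groups, 2 were higher and 3 lower (4.79% and 4.64% of all such genes). Spp1 (chr5:104435118-104441050), the secreted protein osteopontin, was at 1.65, 1.65, 3.28 and 1.78 FPKM in the control morulae, 145, 105, 187 and 115 FPKM in the KD blastocysts and 989, 788, 589 and 534 FPKM in the control blastocysts (log2 fold change 5.43, SE 0.21, adjusted p 5.23e-08 against control morulae). Sox2 (chr3:34650405-34652461), a factor of the inner cells, was at 0.295, 0.104, 0.0352 and 0.0678 FPKM in the control morulae and 1.4, 0.884, 1.73 and 1.45 FPKM in the KD blastocysts (log2 fold change 1.04, adjusted p 2.96e-04), and it entered the test through the KD blastocysts alone and falls below the filter without KD blastocyst 1, 5 or 6. Tfcp2l1 (chr1:118627945-118685168), a pluripotency factor, was at 39.3, 45.6, 18.5 and 43 FPKM and 84.9, 107, 73.2 and 63.2 FPKM (log2 fold change 1.14, adjusted p 0.00916), with fold changes of 0.85 and 0.98 without control morula 7 or KD blastocyst 4. For these 3 genes the 4 KD blastocysts were all above the 4 control morulae. On the lower side, Tdgf1 and Gdf3 lay below both control stages and are described with that group, and Nr5a2 (chr1:136842571-136960448), a nuclear receptor, had 13.6, 20.1, 27.9 and 18.4 FPKM in the control morulae and 6.68, 5.95, 18 and 10.1 FPKM in the KD blastocysts, with overlap (log2 fold change -1.04, adjusted p 0.0173). The call for Nr5a2 was lost without control morula 7 (adjusted p 0.0509), without KD blastocyst 4 (0.0526) and, by its fold change of -0.92, without KD blastocyst 1. Pou5f1 had 55.3, 27.3, 23.7 and 21.5 FPKM in the control morulae and 15.1, 15.5, 45.8 and 26.3 FPKM in the KD blastocysts, and Nanog had 62.9, 103, 113 and 143 FPKM and 118, 134, 226 and 166 FPKM, both with overlapping groups (adjusted p 0.35 and 0.134). On the FPKM as deposited and after quantile normalization the list had 3 higher and 2 lower, and with all 22 libraries in the fit 2 and 2.

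Few primitive endoderm genes reached the filter: 6 of 23, of which 1 was higher (16.7%) and 0 lower, with a median log2 fold change of 0.32. Of all genes tested, 6.61% were higher and 4.97% lower. The called gene was Sparc (chr11:55394500-55423183), a matrix protein that entered the test through the KD blastocysts alone, with 0.118, 0.0353, 0.236 and 0.0711 FPKM in the control morulae, 1.79, 3.77, 6.32 and 1.9 FPKM in the KD blastocysts and 12.8, 20.4, 17.9 and 12.2 FPKM in the control blastocysts (log2 fold change 1.84, SE 0.25, adjusted p 2.48e-04 against control morulae). Gata6, the early primitive endoderm factor, had 27.8, 9.73, 10.3 and 8.87 FPKM and 12, 9.45, 35.7 and 19 FPKM and overlapped between control morulae and KD blastocysts (adjusted p 0.513). Control morula 1 and KD blastocyst 5 held its highest values. The later factors Gata4 and Sox17 did not enter the test, with at most 0.105 FPKM of Gata4 and 0.396 FPKM of Sox17 in the 8 libraries. Sox17 had 1.07, 0.757, 0.37 and 0.188 FPKM in the control blastocysts.

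Cells from outside the embryo left little trace. Of 16 genes of granulosa and cumulus cells, 5 were at 0 in all 8 libraries and 1, Nr4a1, was tested, and it was not called (log2 fold change -0.28). Their summed level was 1.40 to 2.41 FPKM in the control morulae and 1.39 to 3.53 FPKM in the KD blastocysts, with Nr4a1 the most abundant. Of 10 sperm genes, 5 were at 0 and 0 were tested, with sums of 0.247 to 0.793 FPKM in the control morulae and 0.713 to 1.51 FPKM in the KD blastocysts and Prm2 the most abundant. The oocyte genes Gdf9 and Nlrp5 stayed at or under 0.653 FPKM and 0.360 FPKM in the 8 libraries.

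For glycolysis and glucose uptake, 7 of 18 members were higher (38.9%) and 1 was lower (5.56%), with a median log2 fold change of 0.80. Of all genes tested, 6.61% were higher and 4.97% lower. Gapdh (chr6:125161715-125166467) had 28.5, 17.6, 28.5 and 28.5 FPKM in the control morulae and 63.1, 129.7, 171 and 141 FPKM in the KD blastocysts, without overlap (log2 fold change 2.13, adjusted p 1.20e-04). Tpi1 (chr6:124810586-124814296) and Pkm (chr9:59656368-59679375), 2 other enzymes of the pathway, had log2 fold changes of 2.02 (adjusted p 1.88e-04) and 1.81 (adjusted p 5.12e-05), and the glucose transporter Slc2a3, Gpi1, Aldoa and Eno1 were also called. Of the stretches of Gapdh, 22.6% also occur in other gene models, and of Pkm 17.8%. The lower member was Ldhb (chr6:142490249-142507957), a lactate dehydrogenase subunit that entered the test through the control morulae alone (log2 fold change -1.07, adjusted p 0.00211), whose fold change was -0.98 without control morula 7 and -0.89 without KD blastocyst 5. In the control blastocysts the means of Gapdh, Tpi1, Pkm and Ldhb were 202, 77, 29.3 and 0.603 FPKM. The means in the KD blastocysts were 126, 27.5, 38 and 1.003 FPKM. In the control morulae they were 25.8, 5.47, 9.45 and 3.07 FPKM.

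Genes of the respiratory chain had a median log2 fold change of 0.40, with 68 of 82 tested members above 0, but 6 were called higher (7.32%, against 6.61% of all genes tested) and 2 lower (2.44%, against 4.97%), the 2 having entered the test through the control morulae alone. Ndufa6 (chr15:82350140-82354322) and Ndufa7 (chr17:33824572-33838317), subunits of complex I, had log2 fold changes of 1.33 (adjusted p 0.00115) and 1.26 (adjusted p 5.63e-04). Cox6b2 (chr7:4751792-4753094), a testis form of a complex IV subunit, had 2.93, 0.942, 2.48 and 1.01 FPKM in the control morulae and 7.48, 8.61, 4.96 and 6.48 FPKM in the KD blastocysts (log2 fold change 1.49, adjusted p 0.00115). The remaining higher members were Atp5g3, Cox7b and Cox5b. The lower members were Cox7b2, described with the genes below both stages, and Cox4i2 (chr2:152754173-152765037), with 2.18, 4.14, 2.88 and 3.62 FPKM against 1.46, 0.7999, 0.814 and 1.01 FPKM (log2 fold change -1.08, adjusted p 0.00215) and fold changes of -0.975 and -0.998, both within the limit of 1, without control morula 2 or KD blastocyst 5. Of 82 tested cytoplasmic ribosomal protein genes, 0 were called by limma in either direction, with a median log2 fold change of 0.22 (0.27 on the FPKM as deposited and 0.16 after quantile normalization), and at an unadjusted p under 0.05 there were 21 higher and 2 lower. Of 13 protein genes of the mitochondrial genome, looked at after the values were seen, 0 were called by limma (median 0.23, and 0.10 after quantile normalization), with 4 higher and 0 lower at an unadjusted p under 0.05. For neither set is the share over all genes at this unadjusted p given. At an adjusted p under 0.05 whatever the fold change, 1841 of all 11667 genes were higher and 2179 lower.

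Obox6, Gata1, Timm8a2 and Rpph1 were among the genes with the lowest fold changes. Obox6 (chr7:15833241-15839678), a homeobox gene active in cleavage-stage embryos, had 481, 545, 541 and 515 FPKM in the control morulae, 86.3, 81, 95.2 and 101 FPKM in the KD blastocysts and 4.86, 7.9, 8.07 and 12.6 FPKM in the control blastocysts. The KD blastocysts lay between the control stages, apart from both (log2 fold change -2.56 against control morulae, SE 0.15, adjusted p 5.84e-07). Gata1 (chrX:7959260-7978071), better known as a factor of red blood cells, went the same way, with 27.4, 31.4, 31 and 28.2 FPKM, 5.8, 4.23, 5.41 and 3.18 FPKM and 1.04, 1.87, 3.2 and 1.95 FPKM, and KD blastocyst 6 was level with control blastocyst 5 (log2 fold change -2.5, adjusted p 4.33e-06). Timm8a2 (chr14:122034674-122038420), related to an import chaperone of mitochondria, had 99.7, 90.5, 80.02 and 78.6 FPKM in the control morulae and 13.6, 22, 17.3 and 16.9 FPKM in the KD blastocysts, and 16.4, 14.6, 16.9 and 17.6 FPKM in the control blastocysts overlapped the KD values (log2 fold change -2.32, adjusted p 2.80e-06). Rpph1 (chr14:50807449-50807767), the RNA of ribonuclease P, was lower as well (log2 fold change -2.98, SE 0.45, adjusted p 4.81e-04), but 64.9% of its stretches also occur in other genes, the most in Ccnb1ip1.

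The oocyte and maternal list had 6 of 19 tested members lower and 3 higher, with a median log2 fold change of -0.70. Npm2 and Oog3 entered the test through the control morulae alone and the higher Nlrp4f through the KD blastocysts alone, and 12 members reached the filter in both groups, with 4 lower and 2 higher (4.64% and 4.79% of all such genes). Npm2 (chr14:70647302-70659244), a histone chaperone stored in the egg, had 2.28, 3.81, 2.97 and 4.04 FPKM in the control morulae and 0.623, 0.935, 0.718 and 0.631 FPKM in the KD blastocysts (log2 fold change -1.32, SE 0.19, adjusted p 3.61e-04). Its groups did not overlap. Omt2b (chr9:78327589-78329620) and Khdc1a (chr1:21349641-21352200) had log2 fold changes of -1.54 (adjusted p 9.56e-05) and -1.34 (adjusted p 2.22e-04), with 29.6% and 32.2% of their stretches shared with relatives, and Padi6, Oog3 and Omt2a were also lower. The higher members Nlrp4f (chr13:65177111-65205977), Oas1e (chr5:120786226-120795530) and Tcl1 (chr12:105216750-105222793), with log2 fold changes of 1.89, 1.48 and 1.32, had means of 4.2, 9.38 and 12.5 FPKM in the control blastocysts against 0.143, 2.12 and 2.5 FPKM in the control morulae and 3.54, 8.35 and 7.83 FPKM in the KD blastocysts. With all 22 libraries in the fit, 5 members were lower in place of 6.

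Genes of the 2-cell burst, the first wave of embryonic transcription, were called in both directions, 3 of 27 higher and 3 lower, with a median of 0.15. Each count is 11.1% of the list, against 6.61% higher and 4.97% lower of all genes tested. Among the 19 members that reached the filter in both groups, 2 were higher and 3 lower, with a median of -0.18. Of all such genes, 4.79% were higher and 4.64% lower. Higher were Gm2016 (chr12:87874072-87877859), Gm5662 (chr12:88270640-88274500) and Pramef25 (chr4:143948580-143951016), with 21.4, 24.8, 11 and 43.5 FPKM, 17.7, 23.7, 15.8 and 51.9 FPKM and 1.68, 8.34, 1.87 and 11.3 FPKM in the KD blastocysts against 7.64, 2.7, 10.2 and 4.05 FPKM, 11, 4.37, 13.7 and 7.56 FPKM and 0.441, 0.201, 1.78 and 1.53 FPKM in the control morulae. KD blastocyst 6 was the highest for each of these 3 genes, and Pramef25 entered the test through the KD blastocysts alone. Their log2 fold changes were 1.8 (adjusted p 0.00545), 1.36 (adjusted p 0.0147) and 1.5 (adjusted p 0.0328). Gm2016 was also called above both control stages in the test described below (adjusted p 0.0342), a call lost, with adjusted p from 0.0639 to 0.115, without control morula 2 or 8, control blastocyst 4, 5 or 6, or KD blastocyst 1, 4 or 6. Gm2016 and Gm5662 share 73.6% and 67.04% of their stretches, most with each other, and the adjusted p of Pramef25 was 0.0725, 0.0942, 0.0937 and 0.0904 without control morula 1, control morula 2, KD blastocyst 4 or KD blastocyst 6. Lower beside Obox6 were Tdpoz2 (chr3:93651542-93652686, log2 fold change -1.73) and Sp110 (chr1:85576899-85598817, log2 fold change -1.1), the latter at -0.88 and -0.95 without control morula 1 or 8. Zfp352 had 0.0869, 0.156, 2.81 and 2.16 FPKM in the control morulae and 1.91, 5.02, 1.52 and 4.65 FPKM in the KD blastocysts and was not called (log2 fold change 0.96, adjusted p 0.119). Zscan4c and Zscan4d, marks of the 2-cell state, were under the filter, with at most 0.259 FPKM and 0.515 FPKM in the 8 libraries.

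DNA replication and mitosis genes had 6 of 45 tested members lower (13.3%) and 0 higher, with a median log2 fold change of -0.31. Of all genes tested, 4.97% were lower and 6.61% higher. Ccne1 (chr7:38097984-38107534), the cyclin of S-phase entry, had 187, 198, 203 and 218 FPKM in the control morulae, 95.5, 54.1, 87.4 and 75.1 FPKM in the KD blastocysts and 13.7, 37.4, 42 and 32 FPKM in the control blastocysts. KD blastocysts lay between the control stages (log2 fold change -1.44, SE 0.19, adjusted p 1.79e-04 against control morulae). Cdk1 (chr10:69335146-69352938), the mitotic kinase, had 169, 149.7, 150 and 158 FPKM and 75.1, 72.2, 50.9 and 71.1 FPKM (log2 fold change -1.28, adjusted p 3.07e-04), and its 92.7, 90.9, 69.5 and 72.8 FPKM in the control blastocysts overlapped the KD values. Tyms (chr5:30058202-30073617), thymidylate synthase, had 107, 77.8, 274 and 78.2 FPKM and 53.9, 47.1, 38.6 and 67.8 FPKM (log2 fold change -1.23, adjusted p 0.0199), and its call rested on single libraries: without control morula 7 the fold change was -0.81, and without KD blastocyst 5 the adjusted p was 0.0555. Mcm3, Cdc45 and Prc1 were the other lower members.

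**Figure D2:**
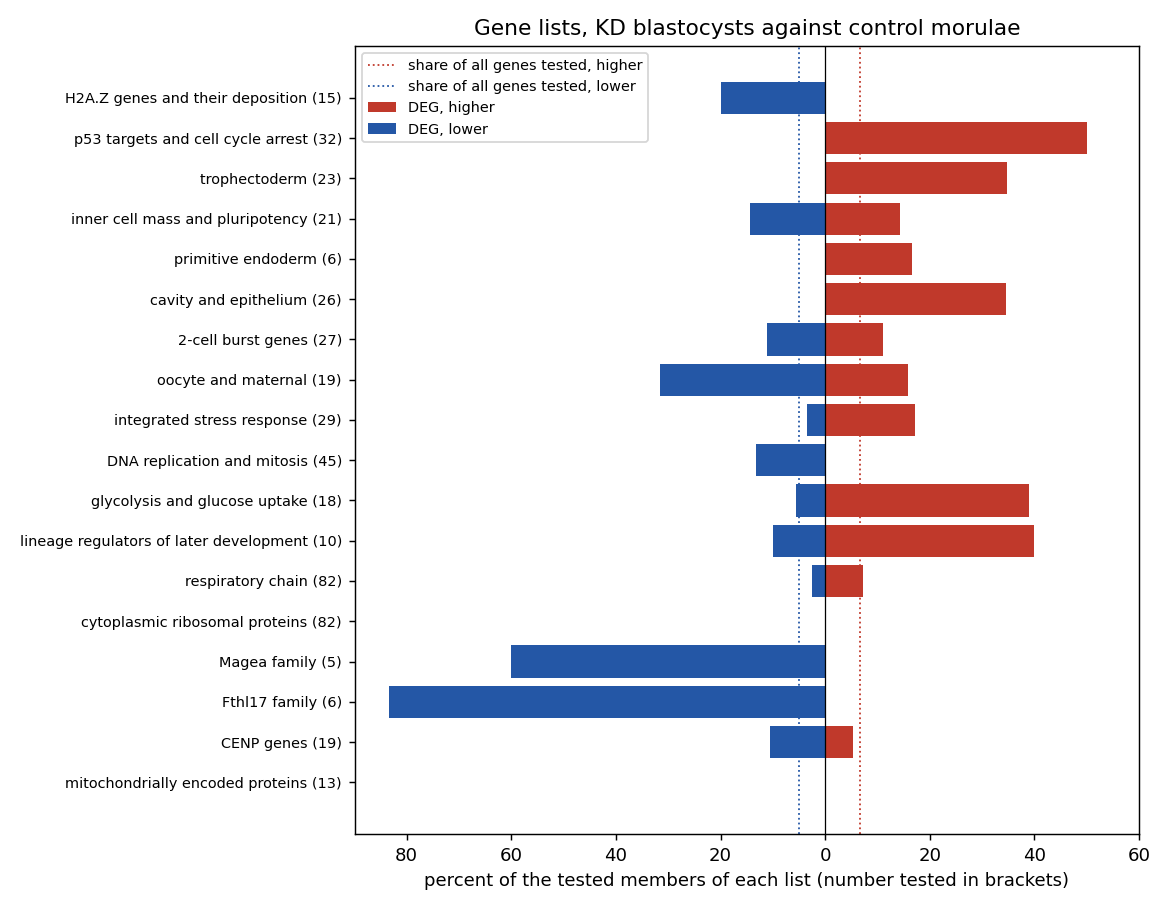
Share of the tested members of each gene list (number tested in brackets, lists with fewer than 5, or with more than 50% of them in the test through the KD blastocysts alone, not drawn) called higher (red, right) or lower (blue, left) in KD blastocysts against control morulae, in percent. Dotted lines mark the shares over all 11667 genes tested, 6.61% higher and 4.97% lower.

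Many of the fold changes above follow the direction of normal development, so the KD blastocysts were also tested against both control stages at once. A gene was called outside both stages when its KD blastocyst level was above, or below, that of control morulae and of control blastocysts by more than 1 on the log2 scale, at an adjusted p under 0.05 for the weaker of the differences. Both differences share the KD blastocyst libraries. In this test 79 genes (0.677%) lay above both control stages and 88 (0.754%) below. For 159 of these 167 genes, the 4 KD blastocysts were all above or all below the 8 control libraries. The same held for 750 (6.43%) of all genes tested. In every one of 12 fits leaving out 1 library, 35 of the 79 and 53 of the 88 were called again. Without a filter on low values 35 genes lay above and 49 below, with a filter of 5 FPKM 38 and 56, and with a pseudocount of 0.1, 87 and 161.

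**Figure D3:**
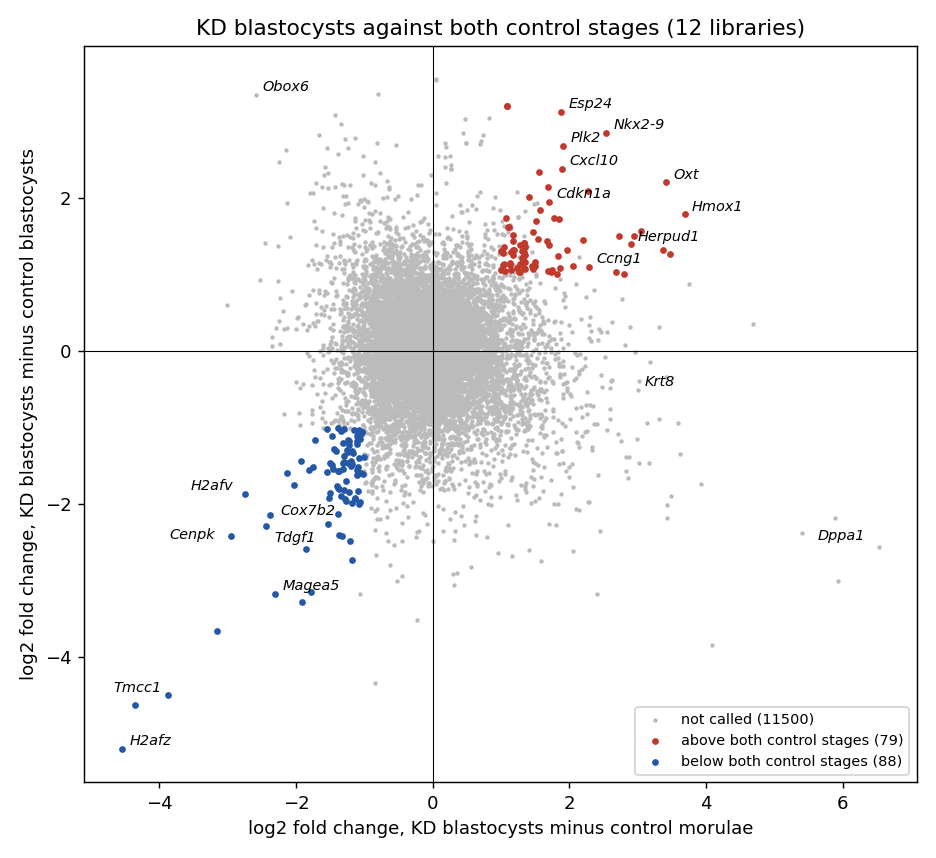
Log2 fold change of KD blastocysts against control blastocysts (vertical axis) and against control morulae (horizontal axis) for the 11667 genes tested, from 1 fit over 12 libraries. Red points are the 79 genes above both control stages and blue points the 88 below both, and genes such as Dppa1, Krt8 and Obox6 lie between the stages or at one of them.

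Among the pathway and marker lists, that of p53 targets and cell cycle arrest genes had the most members above both stages, 8 of 32, among 16 called higher and 0 lower against control morulae (median log2 fold change 0.91). Of all genes tested, 0.677% lay above both stages, 6.61% were higher and 4.97% lower. The fold change was above 0 for 27 members and below 0 for 5. Tigar, the most abundant member, was not called, with a mean of 126.5 FPKM in the control morulae and 86.4 FPKM in the KD blastocysts. Of the 16, Sesn2, Gadd45a, Cdkn2b and Apaf1 entered the test through the KD blastocysts alone, and among the 27 members that reached the filter in both groups 12 were higher (4.79% of all such genes were). p53 is the transcription factor that halts the cell cycle or starts cell death after DNA damage and other stress. Cdkn1a (chr17:29090976-29100727), its target that inhibits cyclin-dependent kinases, had 52.6, 32.4, 38.9 and 38.2 FPKM in the control morulae, 161, 133, 146 and 123 FPKM in the KD blastocysts, 18.4, 31.4, 48.5 and 55.7 FPKM in the control blastocysts and 128, 149.8 and 94 FPKM in the KD morulae. All KD libraries of both stages were above all control libraries of both stages. The log2 fold change was 1.73 (SE 0.16, adjusted p 2.08e-05) against control morulae, and in the 3-group fit 1.71 and 1.95 against the 2 control stages (adjusted p 0.00134). Mdm2 (chr10:117688875-117710758), the ubiquitin ligase that degrades p53, had 21.9, 13, 11.3 and 14.1 FPKM, 47.2, 33.2, 54.9 and 46.4 FPKM and 8.2, 15.2, 20.7 and 17.1 FPKM in control morulae, KD blastocysts and control blastocysts, the KD blastocysts again above all control values (log2 fold change 1.5, adjusted p 1.46e-04 against morulae and 0.00182 for both stages). Plk2 (chr13:110395046-110400844), a polo-like kinase, had 8.997, 3.73, 4.93 and 6.53 FPKM, 36.4, 18.3, 26.4 and 25.6 FPKM and 1.78, 2.87, 4.26 and 4.35 FPKM (log2 fold changes 1.91 and 2.68 against morulae and blastocysts, adjusted p 7.34e-04).

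Ccng1 (chr11:40748552-40755311), cyclin G1, had 36.8, 17.4, 24.6 and 21.6 FPKM in the control morulae, 161, 115, 126 and 121 FPKM in the KD blastocysts and 47, 56.5, 73.7 and 64.8 FPKM in the control blastocysts. It lay above both stages (log2 fold change 2.32 against morulae, adjusted p 1.15e-05; 1.1 against control blastocysts, adjusted p 0.00486), although without KD blastocyst 1 its difference from control blastocysts was 0.97. Btg2 (chr1:134075170-134079120), an antiproliferative protein, had 3.19, 0.945, 2.87 and 2.74 FPKM, 29.2, 23.5, 15.4 and 19.1 FPKM and 7.998, 9.85, 10.8 and 10.8 FPKM (log2 fold change 2.7, adjusted p 4.20e-05 against morulae; 1.03 against control blastocysts, adjusted p 0.0369). The second call for Btg2 was lost, with adjusted p from 0.0551 to 0.111, without control morula 7 or 8, control blastocyst 1, 4, 5 or 6, or KD blastocyst 1, 4 or 6. The other members above both stages were Trp53inp1, Cdkn2b and Pmaip1, and the call of Pmaip1, which encodes the cell death protein NOXA, was lost by its fold change of 0.95 against morulae without control morula 2. Called higher against morulae alone were Sesn2, Phlda3, Perp, Ephx1, Gadd45a, Gadd45g, Apaf1 and Tnfrsf10b. On the FPKM as deposited, after quantile normalization and with all 22 libraries in the fit, the count of higher members of this list was 15, 14 and 15.

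**Figure D4:**
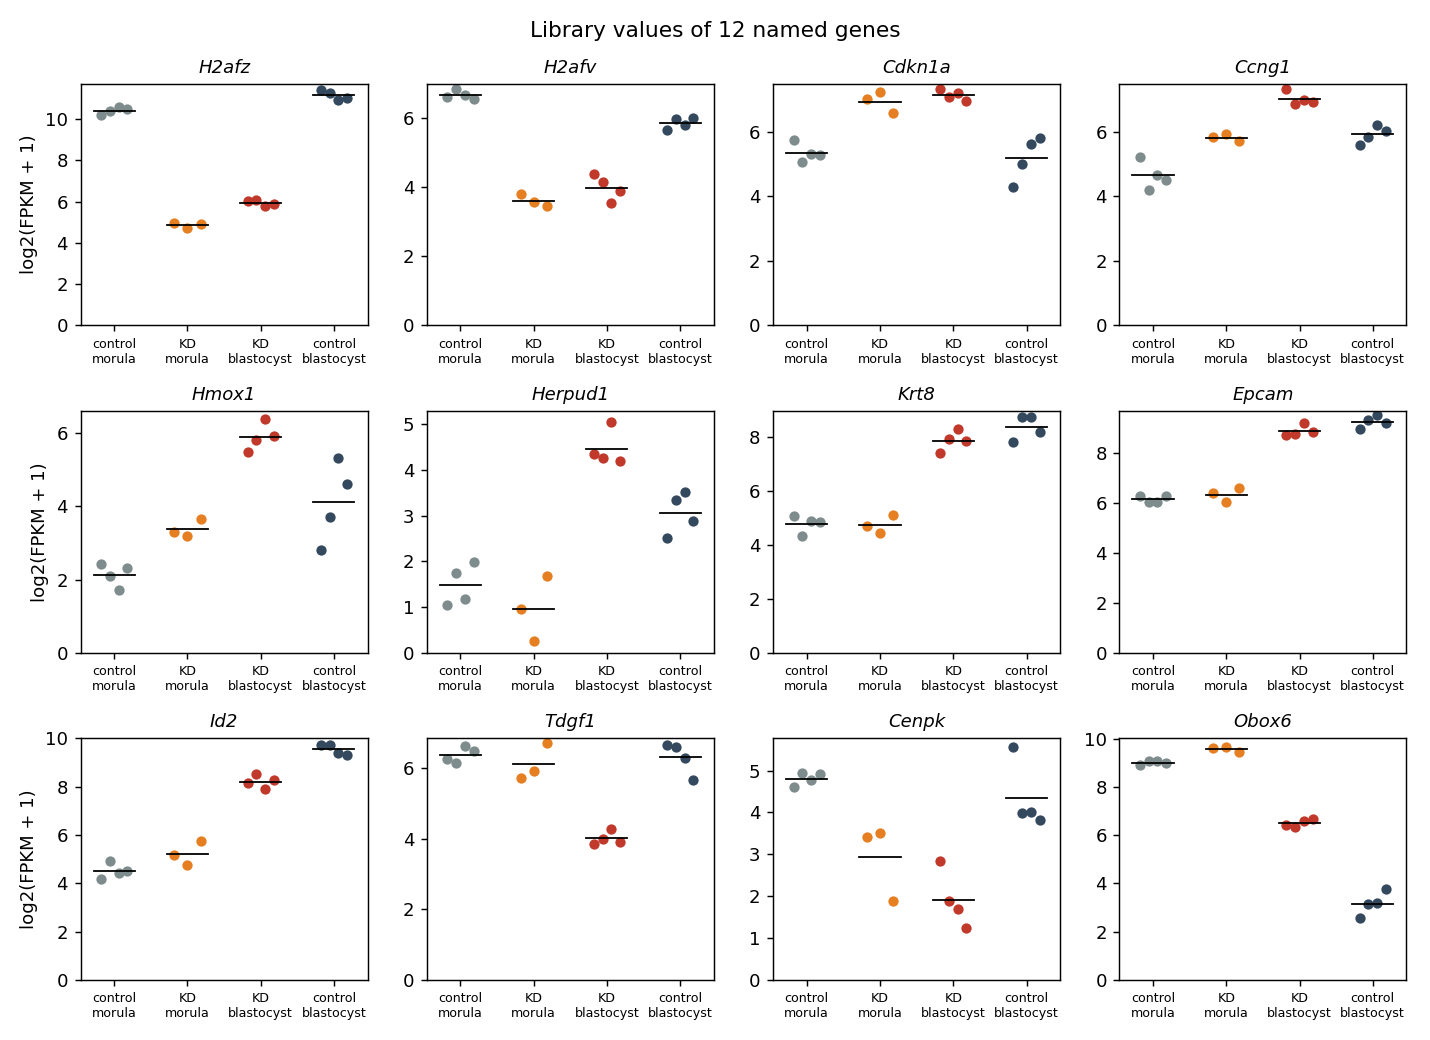
Library values of 12 named genes as log2(FPKM + 1), 1 point per library and a bar at the mean, for control morulae, KD morulae, KD blastocysts and control blastocysts. The top panels show H2afz and H2afv low and Cdkn1a high in the KD groups, and the lower panels show genes above both control stages, near control blastocysts, below both stages or between them.

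Hmox1 and several genes of the integrated stress response were higher in KD blastocysts than in control morulae. Hmox1 (chr8:75093621-75100589), heme oxygenase, an enzyme induced by oxidative stress, had 4.39, 3.31, 2.26 and 3.94 FPKM in the control morulae, 43.8, 55.5, 82.4 and 59.9 FPKM in the KD blastocysts and 5.99, 12.1, 39.2 and 23.6 FPKM in the control blastocysts. The lowest KD blastocyst was above the highest control library, though control blastocyst 5 came near it (log2 fold change 3.71, SE 0.19, adjusted p 3.35e-07 against morulae; 1.78 against control blastocysts, adjusted p 0.0125). In the KD morulae Hmox1 was at 8.91, 8.08 and 11.6 FPKM. The integrated stress response list had 5 of 29 members higher (17.2%) and 1 lower (3.45%), with a median log2 fold change of 0.07. Of all genes tested, 6.61% were higher and 4.97% lower. Of the 5, Atf3 and Sesn2 entered the test through the KD blastocysts alone. Among the 24 members that reached the filter in both groups, 3 were higher and 1 lower (4.79% and 4.64% of all such genes). The median log2 fold change of these 24 was -0.20, against -0.06 over all such genes. Herpud1 (chr8:94386438-94395377), which serves the removal of misfolded proteins from the endoplasmic reticulum, had 1.06, 2.33, 1.26 and 2.96 FPKM, 19.3, 18.2, 32.3 and 17.3 FPKM and 4.71, 9.11, 10.5 and 6.35 FPKM (log2 fold changes 2.9 and 1.39 against the 2 control stages, adjusted p 0.00714). Atf3 (chr1:191170296-191218039), a stress-induced transcription factor, was listed at 0 in the 4 control morulae, at 1.05, 1.84, 1.71 and 1.78 FPKM in the KD blastocysts and at 0.042, 0.272, 0.163 and 0.0252 FPKM in the control blastocysts (adjusted p 4.92e-05 against morulae and 1.88e-04 for both stages). Ddit3 (chr10:127290774-127296288), the factor CHOP, had 3.35, 4.92, 4.37 and 3.84 FPKM, 22.1, 19.1, 21.2 and 22.3 FPKM and 18.2, 19.2, 16.8 and 16.6 FPKM, so that KD blastocysts differed from morulae (log2 fold change 2.07, adjusted p 8.18e-06) and overlapped control blastocysts. Sesn2 and Cbs were the other higher members. The lower member was Cth (chr3:157894248-157925077), an enzyme of cysteine synthesis, with 147, 147, 126 and 148 FPKM in the control morulae, 69.6, 47.9, 53.7 and 49 FPKM in the KD blastocysts and 14.2, 22.4, 19.3 and 24.6 FPKM in the control blastocysts (log2 fold change -1.42, adjusted p 1.06e-04). After quantile normalization 6 members of this list were higher.

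Among regulators of later development, 4 of 10 tested members of a list of 43 were higher and 1, Gata1, was lower, with a median of -0.17. Of all genes tested, 6.61% were higher and 4.97% lower. Of the 4 higher members, Nkx2-9, Foxj3 and Msx2 entered the test through the KD blastocysts alone. Among the 4 members that reached the filter in both groups, 1 was higher and 1 lower (4.79% and 4.64% of all such genes). Nkx2-9 (chr12:56611389-56613284), a homeobox gene of the neural tube, had 1.44, 0.281, 0.289 and 0.347 FPKM in the control morulae, 10.9, 7.24, 6.1 and 9.09 FPKM in the KD blastocysts, 0.143, 0.107, 0.486 and 0.238 FPKM in the control blastocysts and 4.47, 4.98 and 4.002 FPKM in the KD morulae. All KD libraries of both stages were above all control libraries of both stages (log2 fold changes 2.54 and 2.85 against the 2 control stages, adjusted p 1.95e-05). Foxj3 (chr4:119537004-119629119), a forkhead factor, had 2.94, 0.773, 0.567 and 1.84 FPKM, 5.13, 3.29, 6.87 and 2.75 FPKM and 0.513, 0.976, 0.534 and 0.791 FPKM and overlapped between control morula 1 and KD blastocyst 6 (log2 fold change 1.12, adjusted p 0.0117 against morulae and 0.0323 for both stages). The fold change of Foxj3 against morulae was 0.98, 0.93 and 0.97 without control morula 2, control morula 7 or KD blastocyst 5, and without KD blastocyst 1 the adjusted p for both stages was 0.09298. Eomes and Msx2 were the other higher members.

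The remaining named genes above both stages have no list in common. Oxt (chr2:130576173-130577054), the gene of the hormone oxytocin, had 1.31, 0.389, 0.576 and 0.502 FPKM in the control morulae, 22.8, 16, 15.3 and 16.8 FPKM in the KD blastocysts and 3.44, 1.83, 2.59 and 4.5 FPKM in the control blastocysts, without overlap (log2 fold changes 3.42 and 2.2 against the 2 control stages, adjusted p 9.83e-05), and 11.5% of its stretches also occur in other genes, the most in Avp. Tex19.2 (chr11:121116215-121118677), a gene of the germ line, had 5.48, 1.61, 1.94 and 2.08 FPKM, 15.8, 10.4, 24.6 and 19.5 FPKM and 0.977, 3.32, 5.78 and 4.16 FPKM (log2 fold changes 2.27 and 2.09, adjusted p 0.0025). Cxcl10 (chr5:92346638-92348889), a chemokine induced by interferon, had 1.42, 0.243, 0.403 and 0.153 FPKM, 5.54, 5.02, 2.76 and 5.99 FPKM and 0.0607, 0.0302, 0 and 0.131 FPKM (log2 fold changes 1.9 and 2.38, adjusted p 4.83e-04). For these 3 genes every KD blastocyst was above every control library of either stage. Oxt and Cxcl10 entered the test through the KD blastocysts alone, so some difference from the morulae follows from the filter. Esp24 (chr17:39036695-39040227), of a family of secreted peptides, was listed at 0 in the 4 control blastocysts and had 0.95, 1.72, 1.02 and 1.75 FPKM in the control morulae and 2.95, 16.2, 6.26 and 12.7 FPKM in the KD blastocysts (log2 fold change 1.9, adjusted p 0.00296 against morulae). CT010467.1 (chr17:39846353-39848827), annotated as ribosomal RNA, had 1777, 1999, 919 and 701 FPKM, 2629, 4696, 5327 and 7481 FPKM and 474, 1959.6, 1534 and 2893 FPKM, with KD blastocyst 1 below control blastocyst 6. Its call for both stages (adjusted p 0.0466) was lost, with adjusted p from 0.0525 to 0.160, without any 1 of control morulae 1, 2, 7 and 8, control blastocysts 1, 4 and 5, and KD blastocysts 4, 5 and 6, and 35.2% of its stretches also occur in other genes, the most in AY036118.

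Below both control stages, beside H2afz, H2afv and Tmcc1, stood Cenpk (chr13:104228611-104252392), which encodes a protein of the inner kinetochore. It had 23.3, 29.8, 26.4 and 29.1 FPKM in the control morulae, 6.16, 2.67, 2.23 and 1.37 FPKM in the KD blastocysts and 46.3, 14.7, 15.1 and 13.2 FPKM in the control blastocysts. Every KD blastocyst was below every control library (log2 fold change -2.93, SE 0.3, adjusted p 4.01e-05 against morulae; -2.42 against control blastocysts, adjusted p 0.00346). Cenpk overlaps Ppwd1 on the other strand, and Ppwd1 also lay below both stages, at a mean of 1.67 FPKM in the KD blastocysts against 5.96 FPKM and 5.57 FPKM in the control stages. Of 19 tested genes named Cenp, a family looked at after the values were seen, 2 were lower (10.5%, against 4.97% of all genes tested), Cenpk and Cenpq, and both lay below both stages, while 1, Cenpv, which entered the test through the KD blastocysts alone, was higher (5.26%, against 6.61%) and the median log2 fold change was -0.38. Tdgf1 (chr9:110939603-110946158), the Nodal co-receptor Cripto, had 75.3, 69, 98.1 and 88.3 FPKM in the control morulae, 13.5, 15, 18.5 and 13.8 FPKM in the KD blastocysts, 99.5, 96.5, 77 and 49.3 FPKM in the control blastocysts and 51.5, 59.7 and 103 FPKM in the KD morulae. The KD blastocysts were alone in their low values among these 4 groups (log2 fold change -2.42, SE 0.17, adjusted p 2.80e-06 against morulae; -2.29 against control blastocysts, adjusted p 5.29e-05). Gdf3 (chr6:122605403-122610087), a ligand that signals with Tdgf1, had 15.6, 17.3, 18.2 and 15.4 FPKM, 13.2, 7.49, 6.29 and 5.56 FPKM and 22, 25.9, 25.1 and 23.1 FPKM (log2 fold change -1.06, adjusted p 0.00643 against morulae and 0.013 for both stages). Its fold change against morulae was -0.93 and -0.92 without KD blastocyst 5 or 6.

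Cox7b2 (chr5:71442824-71548205), a subunit form of respiratory complex IV, had 5.4, 3.73, 7.21 and 6.79 FPKM in the control morulae, 0.283, 0.498, 0.349 and 0.107 FPKM in the KD blastocysts, 5.49, 3.6, 4.76 and 6.18 FPKM in the control blastocysts and 0.922, 0.721 and 0.259 FPKM in the KD morulae. All KD libraries of both stages were below all control libraries (log2 fold changes -2.38 and -2.15 against the 2 control stages, adjusted p 5.29e-05). Magea5 (chrX:155053061-155063145) and Magea8 (chrX:154985775-154995850), X-linked genes of the melanoma antigen family, were also called below both stages. Magea5 had 22.3, 20.1, 23.6 and 23.1 FPKM in the control morulae, 4.01, 4.33, 5.96 and 2.19 FPKM in the KD blastocysts and 45.6, 44.8, 57.8 and 31.3 FPKM in the control blastocysts, without overlap (log2 fold changes -2.31 and -3.18, adjusted p 5.29e-05). Magea8 had 5.77, 6.7, 14 and 13.4 FPKM, 2.02, 1.02, 6.07 and 0.58 FPKM and 29, 34.8, 33.1 and 15.9 FPKM, with KD blastocyst 5 inside the morula range (log2 fold change -1.89, adjusted p 0.00489 against morulae and 0.016 for both stages), and the second adjusted p was 0.0535, 0.0563 and 0.0571 without control morula 7, control morula 8 or KD blastocyst 6. The 5 tested Magea genes, 3 of them lower (Magea2 in the test through the control morulae alone) and 0 higher (4 lower after quantile normalization), had a median log2 fold change of -1.83 and share much sequence: 32.2% of the stretches of Magea5 and 29.3% of those of Magea8 also occur in relatives. The 6 tested Fthl17 genes, X-linked relatives of ferritin, had 5 lower and 0 higher, with a median log2 fold change of -1.38, and 1, Fthl17f (chrX:9063015-9063861), lay below both stages. Both families were picked after the values were seen, and of all genes tested 4.97% were lower and 6.61% higher. Of the 88 genes below both stages, 11 (12.5%) lie on the X chromosome, against 3.79% of all genes tested, and of the 79 above both stages 0. The 11 were counted singly and include Magea5, Magea8 and Fthl17f, which belong to families that share sequence.

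Pools of embryos can hold unequal numbers of males and females, and genes that mark sex were looked at for that reason after the values were seen. Xist, from the inactive X chromosome, had 5.59, 5.89, 5.19 and 5.82 FPKM in the control morulae and 6.36, 11.4, 14.3 and 6.7 FPKM in the KD blastocysts (log2 fold change 0.57, adjusted p 0.0654). The Y-linked gene Ddx3y had 12.5, 6.55, 5.21 and 7.49 FPKM and 4.3, 6.46, 4.05 and 13.8 FPKM (log2 fold change -0.26, adjusted p 0.573). Neither passed the test, although the 4 KD blastocysts were above the 4 control morulae for Xist, and the groups overlapped for Ddx3y. Uty and Kdm5d, also on the Y chromosome, were too low for the test, with 1.45, 0.415, 0.637 and 0.876 FPKM and 0.259, 0.326, 0.0507 and 0.0315 FPKM in the control morulae and 0.0407, 0.405, 0.0769 and 0.221 FPKM and 0.0251, 0.0256, 0.0135 and 0.0223 FPKM in the KD blastocysts, and for both all 4 KD blastocysts were below all 4 control morulae. Eif2s3y (chrY:1010543-1028847), another Y-linked gene, had 32.5, 22.2, 17 and 26.5 FPKM, 8.64, 9.83, 6.53 and 12.2 FPKM and, in the control blastocysts, 31.5, 51.4, 14.3 and 60.1 FPKM (log2 fold change -1.35, adjusted p 9.25e-04 against morulae). It was called below both stages (adjusted p 0.0466), a call lost in 10 of the 12 fits that leave out 1 library, with adjusted p from 0.0534 to 0.149. The part of the sex of the embryos in the X-linked and Y-linked values was not tested.

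Gtsf1 (chr15:103402405-103430470) and Asz1 (chr6:18050964-18109061), which act in the piRNA pathway, and Prim1 (chr10:128015168-128030037), the catalytic subunit of DNA primase, were picked after the values were seen from the genes below both stages. Gtsf1 and Asz1 had 14.2, 17.7, 34.9 and 23.9 FPKM and 12.6, 14.5, 17.5 and 19.95 FPKM in the control morulae and 6.48, 5.65, 4.59 and 3.07 FPKM and 4.44, 2.6, 2.35 and 3.03 FPKM in the KD blastocysts. Neither overlapped between these groups, and the log2 fold changes were -1.998 (adjusted p 4.63e-04) and -2.11 (adjusted p 6.03e-05) against morulae and -1.75 and -1.6 against control blastocysts. Prim1 had means of 39.8 FPKM, 15.8 FPKM and 62.8 FPKM in control morulae, KD blastocysts and control blastocysts.

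Replication-dependent histone genes, a family picked after the values were seen, passed the filter in 46 cases, 26 of them through the KD blastocysts alone. Of the 22 called higher, 20 entered the test in that way. Among the 19 that reached the filter in both groups, Hist1h2bc and Hist1h4i were higher and 0 were lower (4.79% and 4.64% of all such genes), with a median log2 fold change of 0.41 against -0.06. Messages of these genes normally end in a stem-loop without a poly(A) tail, so a library primed on poly(A) counts mostly the polyadenylated part. Hist1h2bc (chr13:23684199-23692908) had 2.41, 1.43, 4.24 and 2.82 FPKM in the control morulae, 113, 98.9, 93.4 and 82.5 FPKM in the KD blastocysts and 91.3, 62.7, 72.5 and 77.4 FPKM in the control blastocysts (log2 fold change 4.71, SE 0.24, adjusted p 2.25e-07 against morulae). KD blastocysts were far above the morulae and overlapped the control blastocysts, and 27.1% of the stretches of Hist1h2bc also occur in other histone genes. Hist1h2bg (chr13:23571396-23572013) had 0.452, 0.375, 0.477 and 0.484 FPKM, 14.7, 14.1, 12.3 and 14.9 FPKM and 13.4, 8.81, 9.99 and 12.4 FPKM in the same groups (log2 fold change 3.32, adjusted p 1.68e-07). Hist3h2a (chr11:58954685-58956830), which like Hist1h2bg entered the test through the KD blastocysts alone, had 1.82, 0.598, 1.25 and 0.711 FPKM, 14.1, 10.3, 9.32 and 8.48 FPKM and 8.59, 8.55, 10.3 and 9.76 FPKM (log2 fold change 2.44, adjusted p 1.68e-05). Hist2h3c2 was the 1 member above both stages, a call that was lost by its fold change against control blastocysts without control blastocyst 1 (0.96) or KD blastocyst 6 (0.998, just under the limit), and 62.6% of its stretches also occur in other genes, the most in Hist2h3c1.

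Promoters of 43 of these 46 histone genes were found in the RefSeq table for GRCm38.p6, and they were searched on both strands for the octamer ATTTGCAT (ATGCAAAT on the other strand), a known element of H2B promoters. It was found in 10 of the 43, namely 3 of 9 H2B and 7 of 16 H2A promoters, at 8 distinct sites, because Hist1h2bg and Hist1h2ae share 1 site between them (chr13:23571341-23571348), as do Hist1h2bk and Hist1h2ah (chr13:22035791-22035798). Of all 27025 promoters of the same length, 474 (1.75%) had it, counted by promoter without joining shared sites. Among the genes with the octamer, Hist1h2bb, Hist1h2bg, Hist1h2bk and Hist3h2a were called higher. All of these entered the test through the KD blastocysts alone. Of all 46 tested histone genes, with or without the octamer, 22 (47.8%) were called higher. Hist1h2aa, Hist1h2ab, Hist1h2ac, Hist1h2ae, Hist1h2ah and Hist2h2ac have it and were not called. The octamer describes the sequence and does not show a bound factor. The 250 bases before the start are shown for Hist1h2bg (chr13:23571150-23571399, plus strand) and Hist3h2a (chr11:58954435-58954684, plus strand), a called H2B and a called H2A gene with the element, with the octamer in capitals.
Hist1h2bg: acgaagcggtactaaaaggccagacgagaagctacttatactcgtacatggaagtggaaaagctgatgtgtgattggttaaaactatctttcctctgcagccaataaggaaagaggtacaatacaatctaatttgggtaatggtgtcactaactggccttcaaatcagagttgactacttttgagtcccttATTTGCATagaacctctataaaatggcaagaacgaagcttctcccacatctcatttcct
Hist3h2a: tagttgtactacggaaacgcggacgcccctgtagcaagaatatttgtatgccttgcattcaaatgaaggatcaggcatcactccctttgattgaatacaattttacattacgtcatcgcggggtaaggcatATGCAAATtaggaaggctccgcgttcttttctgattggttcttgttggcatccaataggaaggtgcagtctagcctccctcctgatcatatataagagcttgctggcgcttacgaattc

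Small nuclear RNA genes, which encode the RNAs of the spliceosome and of histone message processing, were also looked at after the values were seen. Of 1383 in the table, 40 were tested, 22 of them through the KD blastocysts alone. Of the 19 called higher (0 were lower; 18 and 1 after quantile normalization), 13 entered the test in that way, as did 7 of the 10 above both stages. Among the 14 that reached the filter in both groups, 6 were higher and 0 lower (4.79% and 4.64% of all such genes). Rnu2-10 (chr11:101658238-101658428), a U2 gene, had 2.73, 3.83, 3.47 and 4.05 FPKM in the control morulae, 9.18, 17.4, 10.2 and 12.4 FPKM in the KD blastocysts and 5.65, 4.75, 4.63 and 4.77 FPKM in the control blastocysts (log2 fold change 1.47, adjusted p 5.19e-04 against morulae and 0.00932 for both stages). Without KD blastocyst 4 its fold change against control blastocysts was 0.92. Summed over the 1383 genes, the control morulae had 123 to 125 FPKM, the KD blastocysts 189 to 250.4 FPKM and the control blastocysts 95.3 to 114 FPKM, without overlap. Nearly identical copies make the share of each gene uncertain, since all 75-base stretches of Rnu2-10 also occur in other genes, and these RNAs lack a poly(A) tail.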

How the data were processed

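The values are the FPKM per gene that the authors deposited, 1 column per library, which their processing notes trace to alignment with STAR to mm10 and StringTie 2.1.4. Those notes also name featureCounts 1.6.2 and DESeq2 1.30.1, whose counts were not used here. All 22 columns were matched to samples by name, with 0 left over. The depth per library is unknown, because only FPKM are given: between 17.7% and 27.4% of low values of single-exon genes lay within 0.03 of whole steps, so reads could not be recovered. Gene versions matched the annotation for 54587 of 55335 genes and gene IDs without version for 55154, and 27 symbols that a spreadsheet had turned into dates were restored.

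FPKM were divided by a library factor, the median of its ratios to the geometric mean of each gene, taken over genes without a 0 in any library fitted. Log2 values with a pseudocount of 1 were fitted with limma 3.58.1 (trend) in R 4.3.3, for genes with at least 1 FPKM in at least 3 of the 8 libraries. Calls needed a Benjamini-Hochberg adjusted p under 0.05 over all genes tested and a log2 fold change beyond 1. The test against both control stages used 1 fit over 12 libraries with the larger of the 2 two-sided p-values. Its gene filter was that of the 8 libraries. Python 3.11.15 with pandas 2.3.3 and matplotlib 3.10.9 searched sequences and drew the plots. Shared sequence is the share of 75-base stretches of a gene's annotated exons that also occur in another gene.

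Genes were named by rule: the 10 highest and 10 lowest fold changes among called genes whose groups do not overlap, the 8 strongest above and the 8 strongest below both stages, leaving out gene models and pseudogenes, a fixed set of markers, and up to 3 called members in each direction per list. Members and lists were chosen with earlier results of these data known. 1 gene list, with its members, is not reported here. Alternatives were the scaling (FPKM as deposited, quantile normalization), a pseudocount of 0.1, no filter, at least 5 FPKM, all 22 libraries in 1 fit, no trend, the range of replicate numbers as a covariate, a replicate block and leaving out each library. The procedure was tested on simulated data. Counts over promoter motifs of called genes were left out, since 7278 of the 11667 tested genes had a promoter sequence.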

Additional observations from a re-analysis of the deposited data

Results flagged for a closer look

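Of the 160 groups of 4 library values of the 91 named genes, 11 had 1 library so far from the other 3 that the gap took up more of the whole range than Dixon's 95% limit allows, and chance alone marks about 1 in 20 groups. In control morula 1, Nkx2-9 had 1.44 FPKM against 0.281 to 0.347 in the other control morulae, Tex19.2 had 5.48 FPKM against 1.61 to 2.08, and Gata6 had 27.8 FPKM against 8.87 to 10.3. Control morula 7 had 3.28 FPKM of Spp1 against 1.65 to 1.78, 126 FPKM of Cth against 147 to 148, and 274 FPKM of Tyms against 77.8 to 107. Control morula 2 had 17.6 FPKM of Gapdh while the other 3 were all near 28.5 FPKM. KD blastocyst 5 had 1.19 FPKM of Aqp8 against 0.304 to 0.424 in the other KD blastocysts, 32.3 FPKM of Herpud1 against 17.3 to 19.3, and 50.9 FPKM of Cdk1 against 71.1 to 75.1. KD blastocyst 1 had 1.05 FPKM of Atf3 against 1.71 to 1.84. Control morula 1, control morula 7 and KD blastocyst 5 each held 3 of these values, and they had 11174, 10579 and 11495 genes at 1 FPKM or more. What part the number of genes has in the single values was not tested.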

How the results depend on the processing

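Leaving out 1 library at a time, the number of genes higher in KD blastocysts than in control morulae ran from 736 to 799 (771 with all 8) and the number lower from 569 to 668 (580 with all 8), and 992 of the 1351 genes were called in each of these 8 fits. For the test against both control stages the counts ran from 59 to 87 above and from 68 to 111 below over 12 such fits. With a pseudocount of 0.1 there were 1194 genes higher, 1016 lower and 161 below both stages. The cause was not tested. Without a filter on low values, 34177 genes were tested and 35 lay above and 49 below both stages, and the cause was not tested. With at least 5 FPKM in 3 libraries, 6775 genes were tested, 464 were higher than in morulae, and 38 lay above and 56 below both stages. The cause of these lower counts was not tested either. The FPKM as deposited gave 841 higher and 533 lower, quantile normalization 762 and 586, all 22 libraries in 1 fit 779 and 514, no trend 770 and 580, and the range of replicate numbers as a covariate 749 and 575. These scalings moved the median log2 fold change of all genes by less than 0.1. Replicate numbers 1, 4, 5 and 6 occur in both blastocyst groups, and with them as a replicate block 74 genes lay above and 86 below both stages, all of them among the 79 and 88. Correlations of the residuals of same-numbered KD and control blastocysts were 0.0847, -0.107, 0.352 and 0.000987, so the numbers were not taken as a pairing. No paired analysis was possible for KD blastocysts against control morulae because they share number 1 alone. For single named genes, 1285 of 1327 alternatives left the call, by adjusted p and fold change, as it was, 41 ended a call, 25 of them by leaving out 1 library, 1 made one and 0 turned a direction, and in 17 further cases the gene was not tested. By the adjusted p alone, 1298 stayed on the same side of 0.05, 16 moved above it and 13 below. The p-values rest on 4 libraries a group, and the depth, which sets the precision of low values, is not known.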
